A study of Mus musculus with 4 samples.

Results

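In all, 40 genes of DNA repair and of the Fanconi anaemia pathway were followed in muscle progenitor cells of aged and young mice.

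The members were taken by gene symbol from the platform annotation of the array. Of the 40 genes listed, 36 had a probe set among 19505 named genes, each with a single one. Rad54b, Xrcc2, Rbbp8 and Parp1 were not analysed here. Homologous recombination and Fanconi genes made up 19 of the 36 and were set against 17 genes of end joining, mismatch and excision repair, and damage sensing. The cells were sorted from muscle of C57Bl/6 mice as positive for the integrins CD29 and ITGA7, a sort that enriches satellite cells, the stem cells of skeletal muscle. The aged group (2 years) and the young group (5 weeks) had 2 arrays each, with no treatment of either. Whether arrays of the same age came from different animals is not stated in the labels, so p-values reflect only how far these samples spread. Levels are deposited log2 values, differences are aged minus young in the same units, and errors of differences are standard errors of a limma fit across all 19572 probe sets with a gene symbol.

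Homologous recombination repairs a DNA double-strand break by copying the sister chromatid and is therefore used mainly after replication. BRCA1 and BRCA2 prepare resected ends for strand invasion, and nucleases such as GEN1 and MUS81 cut the joined molecules apart at the end. The Fanconi proteins detect and unhook crosslinks between the DNA strands and hand the break to recombination. End joining seals breaks without a template and is open to resting cells, the usual state of a satellite cell in uninjured muscle, while the kinases ATM and ATR signal damage to the cell cycle.

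The 4 arrays had like medians over the tested probe sets (6.71 to 6.80), but a measure of array quality and markers of other cell types differed between the ages. For the quality measure, replicate 2 of the aged and of the young group were close. How well exon controls stood above intron controls, an area under the curve that is higher for cleaner RNA signal, was 0.792 and 0.819 in aged against 0.849 and 0.823 in young arrays. All 8 satellite cell markers, among them Pax7, Itga7 and Itgb1, were read above the intron control median in every array. Their differences were negative for 6 of 8, with none at an unadjusted p under 0.05 in limma. They averaged 11.93 and 12.25 in aged against 12.96 and 11.76 in young arrays. Both aged arrays lay below both young arrays for Itgb1 (-0.64) and Cdh15 (-0.87), or 25% of the list against 18.4% of all probe sets. Markers of granulocyte precursors (9 of 9 with positive differences, 8 at an unadjusted p under 0.05 in limma) averaged 9.95 and 12.53 in aged against 6.83 and 6.22 in young arrays, and Ctsg, Prtn3, Ms4a3 and Camp were under the intron control median in both young arrays. Macrophage markers (6 of 6 positive, 3 at that p) averaged 6.78 to 7.31 in aged against 5.67 to 6.19 in young arrays, T and NK cell markers (5 of 6 positive, 3 at that p) 6.41 to 8.14 and 5.71 to 5.83, and B and plasma cell markers (4 of 4 positive, 2 at that p) 6.37 to 7.26 and 4.76 to 5.11. Of these markers, Adgre1, Csf1r, Aif1, Cd8a, Cd79b and Ms4a1 were under the intron control median in all 4 arrays. In the B and plasma cell list, Cd79b and Ms4a1 differed by only 0.03 and 0.04, Cd79a by 1.21 and Jchain by 6.24. Fibroblast markers (4 of 4 negative, 3 at that p) averaged 12.30 in both aged arrays and 13.89 to 14.72 in young arrays, and endothelial markers (4 of 5 negative, none at that p) 6.90 to 8.28 and 7.41 to 10.31. The 3 fibroblast markers at that p were the collagen genes Col1a1, Col1a2 and Col3a1, while Dcn differed by -0.05 and its groups overlapped. The part of array quality and of other cells in the differences below was not tested. In sorted samples of this kind, fewer cells of a type and less RNA per cell cannot be told apart.

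Among the 36 repair genes, the junction-cutting nuclease genes Gen1 and Mus81 had the largest negative differences. The median level over all 36 was 7.91 and 7.68 in aged against 7.71 and 7.94 in young arrays, which overlap. The mean level was 7.35 and 7.30 in aged against 7.46 and 7.55 in young arrays, but without Gen1 and Mus81, left out after their values were seen, the means overlapped as well (7.39 and 7.32 against 7.35 and 7.51). None of the 36 members passed the limma test adjusted over all probe sets (smallest adjusted p of 0.465), and none of the 19572 probe sets did; 1 probe set, no member, passed when young replicate 2 was left out. At an unadjusted p under 0.05, Gen1 and Mus81 were lower and Atr was higher in aged cells. Lower readings at that p made up 3.99% of all probe sets and higher ones 3.36%, so a count of 2 and 1 among 36 members is near what the array gave at large. The median difference was -0.08 over the members and -0.001 over all probe sets, and 19 members had negative and 17 positive differences. Both aged arrays lay below both young arrays for 6 members (Bard1, Gen1, Mus81, Nbn, Mdc1 and Ercc1), or 16.7% against 18.4% of all probe sets, and above both for Atr alone, or 2.78% against 18.2%.

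**Figure D1:**
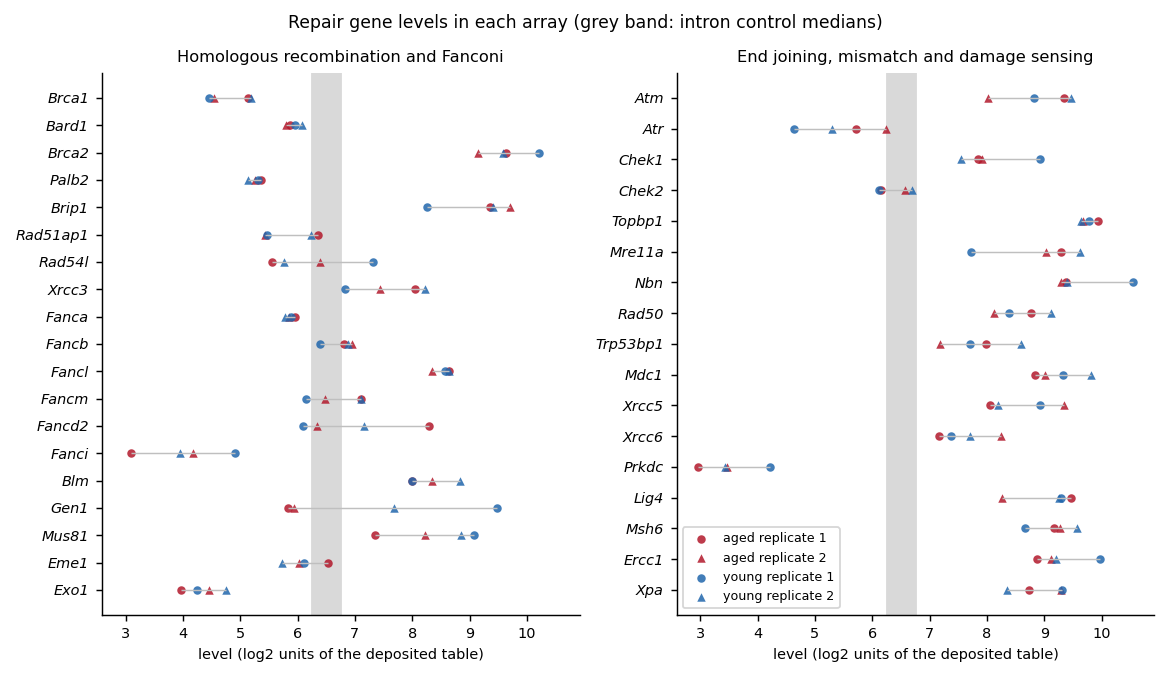
Level of each measured repair gene in each array, in log2 units of the deposited table (x axis), with 1 row per gene; red marks are aged and blue marks young arrays, circles replicate 1 and triangles replicate 2, and the grey band spans the intron control medians of the 4 arrays (6.25 to 6.76). Red and blue marks interleave in most rows, while in the Gen1 row the aged arrays (5.83 and 5.95) sit apart from the young arrays (9.47 and 7.68).

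Gen1, which encodes a nuclease that cuts Holliday junctions symmetrically, had the largest difference of any member. It was read at 5.83 and 5.95 in aged against 9.47 and 7.68 in young arrays. The aged arrays were nearly equal and both lay under the intron control median of their array, while both young arrays lay above it and differed from each other (SD of 1.27). The difference was -2.69 ± 0.60 (SE), with an unadjusted p of 0.00442 and an adjusted p of 0.465 in limma. Since the aged readings may be background, the size of this difference is uncertain. It ran from -3.58 to -1.79 when each array was left out in turn, being smallest without young replicate 1, and was -1.59 (unadjusted p of 0.0937 in limma) with the exon to intron separation as covariate.

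Mus81, the catalytic subunit of a second nuclease that cuts branched DNA, was lower as well. It was read at 7.35 and 8.22 in aged against 9.08 and 8.85 in young arrays, above the intron control median in all 4. The groups did not overlap, and the gap between the aged arrays was wider than that between the young ones. The difference was -1.18 ± 0.39 (SE), with an unadjusted p of 0.0231 and an adjusted p of 0.603 in limma. Leaving out aged replicate 1 gave -0.75 and leaving out young replicate 1 gave -1.07, and neither of these kept an unadjusted p under 0.05; nor did the fit with the exon to intron separation as covariate (-0.53). Eme1, the partner that MUS81 needs for activity, showed no such difference. Its levels were 6.54 and 6.03 in aged against 6.11 and 5.72 in young arrays, all under the intron control medians, and its difference was 0.36 ± 0.34 (SE).

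The other members that process ends and junctions had small differences. Blm, a helicase that dissolves double Holliday junctions without cutting, was read at 7.99 and 8.35 in aged against 7.99 and 8.83 in young arrays. Its difference of -0.24 ± 0.39 was smaller than the gap between the young arrays. Exo1, which resects ends and also acts in mismatch repair, differed by -0.29 ± 0.35, with all arrays under the intron control medians. Of the 5 genes with this role, 4 had negative differences, beside 50.2% of all probe sets, and 2 (Gen1 and Mus81) were lower at an unadjusted p under 0.05, beside 3.99%; the roles were grouped with results known.

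**Figure D2:**
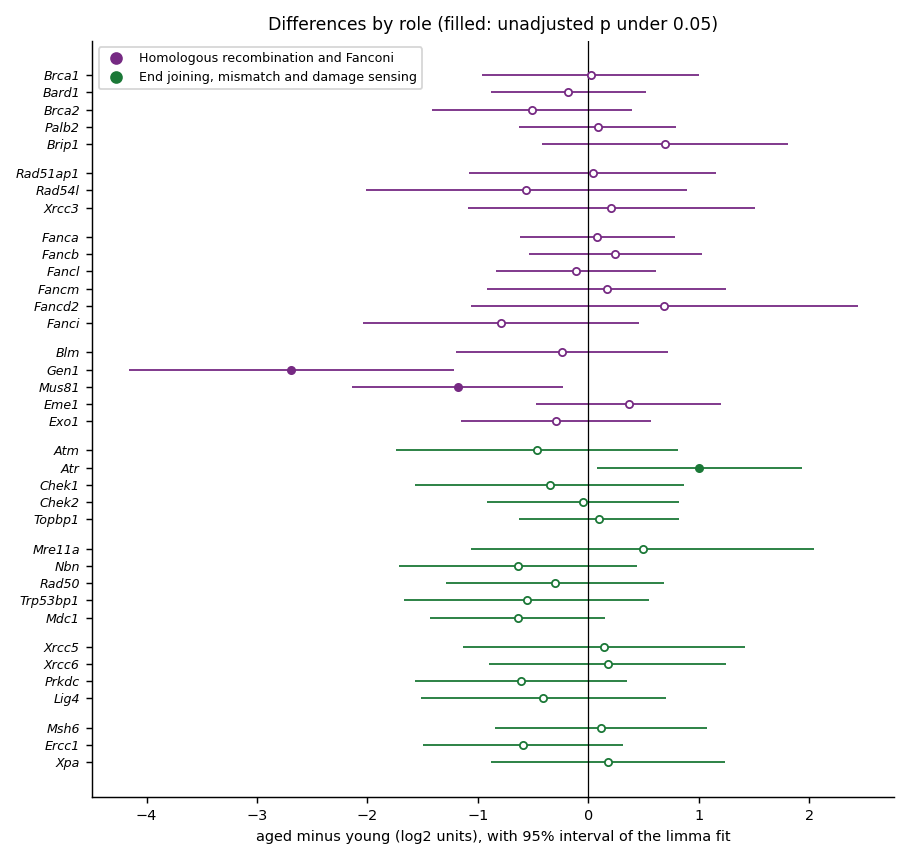
Aged minus young difference of each measured member in log2 units (x axis) with the 95% interval of the limma fit, 1 row per gene in blocks by role; purple marks homologous recombination and Fanconi genes, green the other members, and filled points an unadjusted p under 0.05. Only Gen1, Mus81 and Atr have intervals that leave out 0, and 20 of the 36 intervals include -1.

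BRCA1, BRCA2 and their partners form a hub of recombination at a break, and none of the 5 genes was at an unadjusted p under 0.05. Brca2, which acts after end resection, was read at 9.64 and 9.14 in aged against 10.22 and 9.58 in young arrays. The groups touched, since aged replicate 1 lay above young replicate 2, and the difference was -0.51 ± 0.37 (SE). Brip1, a helicase bound by BRCA1, was read at 9.35 and 9.70 in aged against 8.26 and 9.41 in young arrays. Here young replicate 1 stood below the other arrays. The difference of 0.69 ± 0.45 (unadjusted p of 0.178 in limma) was 0.11 without that array and 1.27 without young replicate 2. Brca1 and its ubiquitin ligase partner Bard1 differed by 0.02 ± 0.40 and -0.18 ± 0.28, and Palb2, the bridge between BRCA1 and BRCA2, by 0.09 ± 0.29. These last 3 genes lay under the intron control median in all 4 arrays, so a change in them could be hidden in background.

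Of the 3 measured genes of strand invasion, 2 averaged under the intron control median. Rad54l, a motor protein that helps the broken strand invade its template, was read at 5.56 and 6.39 in aged against 7.32 and 5.76 in young arrays. Its difference was -0.56 ± 0.59 (SE), with an unadjusted p of 0.379 in limma. That difference was 0.22 without young replicate 1, the one array above its intron control median, and -1.34 without young replicate 2. Rad51ap1, which stimulates strand pairing, differed by 0.04 ± 0.45, and Xrcc3, which acts in the same step, by 0.21 ± 0.53. For Xrcc3, young replicate 1 (6.83) and young replicate 2 (8.23) enclosed both aged arrays (8.04 and 7.44).

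In the Fanconi pathway the core complex attaches ubiquitin to the pair FANCD2 and FANCI, and no member of it was at an unadjusted p under 0.05. Fanca, Fancb and Fancl, subunits of the core complex with FANCL as its ligase, differed by 0.08 ± 0.28, 0.25 ± 0.32 and -0.11 ± 0.29 (SE), and Fancm, the DNA-remodelling anchor of the complex, by 0.17 ± 0.44. The intervals of Fanca (-0.62 to 0.78) and Fancl (-0.84 to 0.61) stayed within 1 log2 unit of 0, but all Fanca readings lay under the intron control medians. Fanci had the largest difference in the group, with 3.09 and 4.18 in aged against 4.90 and 3.96 in young arrays. Its difference was -0.79 ± 0.51 (unadjusted p of 0.171 in limma), at levels far under the intron controls. Fancd2 pointed the other way, with 8.29 and 6.34 in aged against 6.09 and 7.16 in young arrays. The aged arrays were 1 high and 1 low, so that the difference of 0.69 ± 0.71 was -0.29 without aged replicate 1 but 1.66 without aged replicate 2.

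Among the kinases that signal damage, Atr was the one member of the whole set that was higher in aged cells at an unadjusted p under 0.05. ATR responds to stalled replication forks. Atr was read at 5.71 and 6.23 in aged against 4.63 and 5.30 in young arrays. The groups did not overlap, but all 4 arrays lay under their intron control medians. The difference was 1.01 ± 0.38 (SE), with an unadjusted p of 0.0377 and an adjusted p of 0.652 in limma. The unadjusted p rose above 0.05 in 5 of the 13 other settings run, among them a second quantile normalization (0.95) and leaving out aged replicate 2 (0.75) or young replicate 1 (0.67).

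The partners of Atr did not share its direction beyond their error. Topbp1, which activates ATR, was read at 9.93 and 9.68 in aged against 9.79 and 9.63 in young arrays. These 4 values were close, and the difference was 0.10 ± 0.29 (SE), with a 95% interval of -0.63 to 0.82. Chek1, the kinase downstream of ATR, was read at 7.84 and 7.92 in aged against 8.92 and 7.54 in young arrays. Its difference of -0.35 ± 0.49 was -1.04 without young replicate 2 but 0.34 without young replicate 1. Atm, the kinase that responds to double-strand breaks, differed by -0.47 ± 0.52, with aged replicate 2 (8.01) below the other arrays (8.82 to 9.47), and Chek2, its downstream kinase, by -0.05 ± 0.35. With the exon to intron separation as covariate, added after seeing the data, the Atm difference was -1.63 (unadjusted p of 0.026 in limma). That fit leaves 1 residual degree of freedom, and the separation itself was lower in both aged arrays than in both young ones.

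Proteins that sense breaks and recruit others to them had negative differences in 4 of 5 genes, none of them at an unadjusted p under 0.05. Mdc1, which binds marked chromatin beside a break, was read at 8.85 and 9.01 in aged against 9.33 and 9.82 in young arrays. All aged values lay below all young ones, and the difference was -0.64 ± 0.32 (SE), with an unadjusted p of 0.0933 and an adjusted p of 0.733 in limma. Trp53bp1, which steers breaks towards end joining, differed by -0.56 ± 0.45. With the exon to intron separation as covariate, a fit that leaves 1 residual degree of freedom, Trp53bp1 differed by -1.55 (unadjusted p of 0.0218 in limma). The subunits of the MRN complex, the first sensor of double-strand breaks, did not move together. Nbn was read at 9.38 and 9.29 in aged against 10.54 and 9.40 in young arrays, a difference of -0.64 ± 0.44 that was -0.07 without young replicate 1. Mre11a, the nuclease of the complex, was read at 9.29 and 9.03 in aged against 7.72 and 9.62 in young arrays, a difference of 0.49 ± 0.63 that was -0.46 without the same array. Rad50 differed by -0.30 ± 0.40. Young replicate 1 was thus the highest array for Nbn and the lowest for Mre11a.

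None of the 4 end-joining genes was at an unadjusted p under 0.05. Prkdc, the kinase that Ku recruits, had the largest difference of these 4 genes. Its mean level (3.52) was the lowest of any member. It was read at 2.97 and 3.46 in aged against 4.21 and 3.44 in young arrays, all under the intron control medians. The groups overlapped, and the difference was -0.61 ± 0.39 (SE; unadjusted p of 0.168 in limma), which was -0.23 without young replicate 1 and 0.12 with the exon to intron separation as covariate. Xrcc5 and Xrcc6 encode the Ku80 and Ku70 subunits that clasp a broken end. Xrcc5 was read at 8.06 and 9.34 in aged against 8.93 and 8.18 in young arrays, and Xrcc6 at 7.17 and 8.25 in aged against 7.37 and 7.70 in young arrays. In both genes the aged arrays enclosed the young ones, and the differences were 0.14 ± 0.52 and 0.17 ± 0.43 (SE). With the covariate, which leaves 1 residual degree of freedom, the Xrcc5 difference was 1.33 (unadjusted p of 0.0446 in limma). Lig4, the ligase that seals the end, was read at 9.46 and 8.26 in aged against 9.29 and 9.25 in young arrays. Its difference of -0.41 ± 0.45 rested on aged replicate 2 and was 0.19 without it.

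Of the mismatch and excision repair members, Ercc1 had the largest difference. ERCC1 is the partner of the nuclease that cuts on the 5′ side of a lesion in nucleotide excision repair. Ercc1 was read at 8.87 and 9.11 in aged against 9.97 and 9.20 in young arrays. The groups did not overlap, by a narrow margin, and the difference was -0.59 ± 0.37 (SE; unadjusted p of 0.159 in limma), which was -0.21 without young replicate 1. Xpa, which verifies the lesion, differed by 0.18 ± 0.43, and Msh6, which recognises base mismatches, by 0.11 ± 0.39.

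The recombination and Fanconi genes and the other members were then set side by side, with no test of the gap between them. The median difference was 0.02 over the 19 recombination and Fanconi genes, with 9 negative and 10 positive, and -0.30 over the 17 others, with 10 negative and 7 positive, beside 50.2% negative over all probe sets. At an unadjusted p under 0.05 there were 2 lower and 0 higher on the recombination side and 0 lower and 1 higher on the other, beside the 3.99% and 3.36% given above. These counts of lower genes changed on both sides when some arrays were left out, and so did the count over all probe sets. The median level of the recombination side was 6.54 and 6.34 in aged against 6.14 and 6.87 in young arrays, so that the young arrays enclosed the aged ones. That of the other side was 8.77 and 8.26 in aged against 8.82 and 9.11 in young arrays, where the aged arrays lay below. The gap between the medians of the differences (0.32) was -0.015 without young replicate 1, and the sign of the recombination median turned under a second quantile normalization (-0.03) and under median centring (-0.01). With the exon to intron separation as covariate the order turned: the recombination median was -0.33, that of the others -0.036 and the gap -0.29, with 0 recombination genes and 2 others (Atm and Trp53bp1) lower at an unadjusted p under 0.05. On the recombination side 9 of 19 members averaged under the intron control median, against 3 of 17 on the other side and 9364 of 19572 probe sets. The recombination share was thus near that of all probe sets, and that of the other side was lower.

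The precision of these arrays sets how far the absence of a shift can be read. Standard errors of the members ran from 0.28 to 0.71 with a median of 0.40. The 95% interval lay within 1 log2 unit of 0 on both sides for 6 members (Bard1, Palb2, Fanca, Fancl, Chek2 and Topbp1), and 20 intervals included a difference of -1. Of those 6, Bard1, Palb2 and Fanca lay under the intron control median in all 4 arrays and Chek2 in 3. A narrow interval at such levels may only reflect background. Fancl and Topbp1 lay above it in every array. The difference was larger than the gap between arrays within both ages for 5 members (Bard1, Gen1, Mus81, Atr and Mdc1), or 13.9% against 23.8% of all probe sets. In 24 of the 36 members the young arrays lay further apart than the aged ones. The share over all probe sets was not taken, so this count is not read as a trait of the members.

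Other genes of these pathways were taken from lists that hold none of the members. Of 27 further recombination and Fanconi genes, 18 differed negatively (median -0.13), and 3 were lower and 2 higher at an unadjusted p under 0.05, beside 50.2% negative, 3.99% lower and 3.36% higher over all probe sets. The count of lower genes in this list changed when some arrays were left out, and so did the count over all probe sets. The lower ones were Rad51b, which acts in strand invasion (-1.97 ± 0.59, SE), Ube2t, the conjugating enzyme of the Fanconi core complex (-1.07 ± 0.40), and Wrn, a helicase of the same family as Blm (-1.04 ± 0.34). The higher ones were Rad51c, which acts in the same step (0.73 ± 0.29), and the core complex subunit Fance (0.89 ± 0.34). Rad51b and Rad51c were read under the intron control median in all arrays, and the Rad51b difference was -1.13 without young replicate 2. Fance was read high, at 11.13 and 11.56 in aged against 10.23 and 10.68 in young arrays, with no overlap.

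Among 35 further genes of damage sensing, end joining, mismatch and excision repair, 17 had negative differences and the median was 0.01; 2 were lower and 1 higher at an unadjusted p under 0.05, beside the shares just given. Clspn, the adaptor between ATR and CHEK1, was lower (-1.17 ± 0.31, SE), with 5.51 and 5.07 in aged against 6.40 and 6.52 in young arrays. Every array but young replicate 1 lay under the intron control median. Neil3, a glycosylase of base excision repair, was lower as well (-1.36 ± 0.51), with 8.12 and 8.77 in aged against 9.17 and 10.46 in young arrays. Pms2, a mismatch repair nuclease subunit, was higher (2.51 ± 0.83), with 8.42 and 8.44 in aged but 4.59 and 7.24 in young arrays, and its difference was 1.18 without young replicate 1 but 3.83 without young replicate 2. These 3 were the genes of the list at an unadjusted p under 0.05, and their adjusted p in limma was 0.518 to 0.652. The pathway genes named here had adjusted p-values from 0.518 to 0.675 in limma. In the sentences that follow, the values in brackets are differences. An unadjusted p under 0.05 was lost without aged replicate 1 for Rad51b (-1.65), Ube2t (-0.60), Wrn (-0.74), Pms2 (2.52) and Neil3 (-1.04), and without aged replicate 2 for Fance (0.68), Clspn (-0.96) and Pms2 (2.50). It was also lost without young replicate 1 for Fance (0.66) and Ube2t (-0.92), without young replicate 2 for Ube2t (-1.22), Wrn (-0.90) and Neil3 (-0.72), and for Rad51c without any 1 of the arrays (0.64 to 0.82). With the exon to intron separation as covariate, Rad51b (-2.55) and Clspn (-1.50) were still at an unadjusted p under 0.05, while Pms2 (1.00), Ube2t (-0.33), Wrn (-0.85), Fance (0.89), Rad51c (0.68) and Neil3 (-1.72) were not.

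Genes of mitosis are given beside the repair genes, from a short list written when their shift in these data was already known. All 11 measured genes of it differed negatively (median -2.16), 8 of them at an unadjusted p under 0.05 (Mki67, Bub1, Cdk1, Aurkb, Ccna2, Prc1, Cenpe and Kif11), and their adjusted p in limma was 0.386 to 0.603, so that none passed the adjusted test. Over all probe sets, 50.2% differed negatively and 3.99% were lower at an unadjusted p under 0.05. Top2a (-0.60), Plk1 (-1.21) and Aurka (-0.43) were not at that unadjusted p. With the exon to intron separation as covariate the median was -1.47 and 4 genes were at that p, beside 469 of 19572 probe sets lower at it. Without aged replicate 1 or without young replicate 1, Cdk1 (-1.13 and -1.95) and Ccna2 (-0.92 and -0.93) no longer were. The mean level of the mitosis list was 7.35 and 8.19 in aged against 9.37 and 9.73 in young arrays. The recombination and Fanconi members averaged 6.68 and 6.57 in aged against 6.77 and 6.89 in young arrays, and the other members 8.10 and 8.12 in aged against 8.22 and 8.29 in young arrays. Genes of the replication machinery had 8 of 11 negative differences, beside 50.2% of all probe sets, with none at an unadjusted p under 0.05 and a median of -0.09. Whether the mitosis list and the repair members differ in their shift was not tested, since the lists were chosen with results of these data known.

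**Figure D3:**
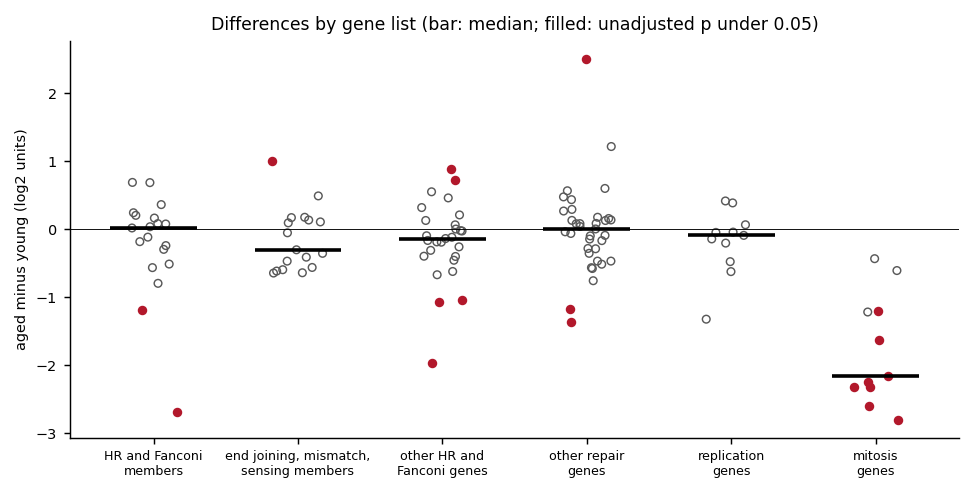
Aged minus young difference in log2 units (y axis) of every measured gene in 6 lists; each point is a gene, black bars are list medians, and filled red points have an unadjusted p under 0.05. The medians of the repair and replication lists lie between -0.30 and 0.02, and the mitosis median lies at -2.16.

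**Figure D4:**
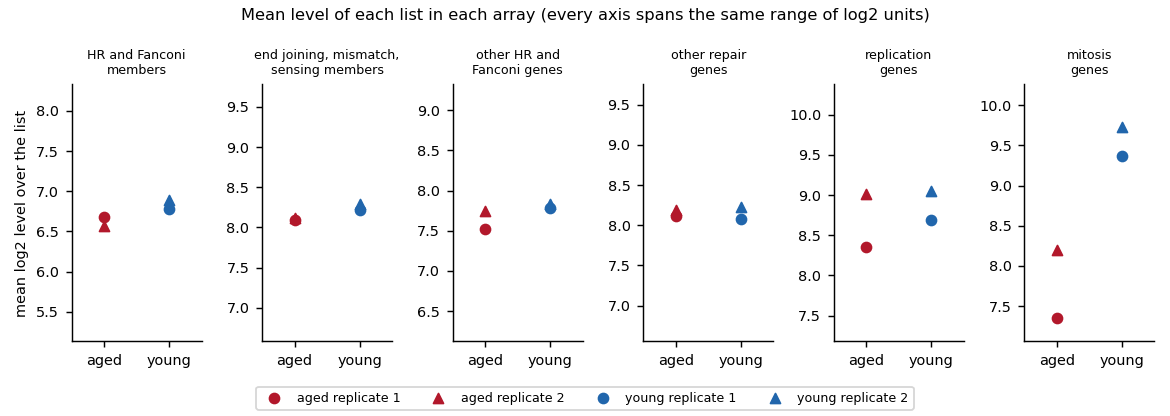
Mean log2 level over each list (y axis) in each array, with red for aged and blue for young arrays, circles for replicate 1 and triangles for replicate 2; every panel spans the same range of log2 units. The mitosis panel has red marks at 7.35 and 8.19 and blue marks at 9.37 and 9.73, while in the panel of recombination and Fanconi members the arrays lie between 6.57 and 6.89.

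Promoters were compared because genes of mitosis and of replication are known to carry different control elements. Mitosis genes are typically switched on through the cell cycle homology region (TTTGAA here) and the NF-Y box (CCAAT), and genes of the S phase through E2F sites (searched as TTTGGCGC, TTTCCCGC, TTTGCCGC and TTTCGCGC). Each motif was searched as an exact match on both strands in the window from 250 bases before to 50 bases after the RefSeq gene start (build GRCm38.p6), and a gene with several listed starts counted where any window held a match. No motif searched contains another. A promoter was held for 31 of the 36 measured members. Among the genes on the array with a promoter, 3.38% held an E2F type match, 17.8% a TTTGAA and 42.2% a CCAAT. Of 17 recombination and Fanconi genes, 2 held an E2F type match (Bard1 and Brca2), 2 a TTTGAA (Bard1 and Eme1) and 10 a CCAAT. Of 14 other members, 5 held an E2F type match (Chek2, Mdc1, Msh6, Topbp1 and Xrcc6), 0 a TTTGAA and 8 a CCAAT. Of 9 mitosis genes, 1 held an E2F type match, 7 a TTTGAA and 9 a CCAAT. These are matches of letters and not shown to be sites in use.

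The 150 bases before the start are printed for the 4 members with the smallest p, and for Prc1, a cytokinesis gene that had the smallest p among the mitosis genes with both a TTTGAA and a CCAAT, as a contrast chosen after its values were seen. Capitals mark the motif matches, and the sequences run 5′ to 3′ on the strand of the gene. Gen1 lies at chr12:11265808-11265957 (minus strand), Mus81 at chr19:5488380-5488529 (minus), Atr at chr9:95857447-95857596 (plus), Mdc1 at chr17:35841348-35841497 (plus) and Prc1 at chr7:80294326-80294475 (plus).
Gen1: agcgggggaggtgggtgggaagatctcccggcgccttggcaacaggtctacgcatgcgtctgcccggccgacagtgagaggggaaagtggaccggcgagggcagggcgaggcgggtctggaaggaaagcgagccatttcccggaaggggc
Mus81: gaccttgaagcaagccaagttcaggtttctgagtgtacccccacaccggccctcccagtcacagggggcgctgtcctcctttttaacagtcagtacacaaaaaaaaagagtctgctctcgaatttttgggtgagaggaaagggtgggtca
Atr: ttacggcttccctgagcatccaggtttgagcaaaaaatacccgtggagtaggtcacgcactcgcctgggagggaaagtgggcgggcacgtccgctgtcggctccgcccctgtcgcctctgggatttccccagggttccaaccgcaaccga
Mdc1: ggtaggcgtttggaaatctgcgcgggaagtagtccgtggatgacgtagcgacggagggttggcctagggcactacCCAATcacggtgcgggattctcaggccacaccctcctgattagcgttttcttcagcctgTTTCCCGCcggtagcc
Prc1: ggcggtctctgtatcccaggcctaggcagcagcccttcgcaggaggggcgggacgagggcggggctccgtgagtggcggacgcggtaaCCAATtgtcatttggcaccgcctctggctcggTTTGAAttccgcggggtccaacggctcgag
The windows of Gen1, Mus81 and Atr held no match to any of the motifs, which says only that these letters are not in them. Mdc1 held a CCAAT and an E2F type match, the latter ending 9 bases before the start. Prc1, shown at the second of its 2 listed starts, held a CCAAT from 62 to 58 and a TTTGAA from 30 to 25 bases before the start.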

How the data were processed

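Per the labels' protocols, biotin-labelled cDNA for each array came from 1 ng of total RNA. The authors' deposited log2 levels were made with RMA and the Transcriptome Analysis Console, per the submitters' processing notes; neither version nor genome build is given in the sources used here. Their table has 28846 entries in 4 columns and reaches 19.4, above what a plain scan usually allows, so differences are given in its log2 units and not as folds. The 19572 probe sets with a gene symbol in the platform annotation were tested together in limma 3.58.1 (R 4.3.3; moderated two-sided test from lmFit and eBayes with group as the only term), with no filter on low levels, and Benjamini-Hochberg adjustment ran over all of them (threshold 0.05). The fit was checked on simulated data whose gene variances came from the prior that limma estimates here, so the check holds under limma's variance model; in an earlier simulation with variances taken from the arrays' own SDs, somewhat more unchanged genes than nominal fell under an unadjusted p of 0.05. The 9274 other entries were array controls and unnamed probe sets; 5222 intron and 1324 exon controls served as a gauge of background. Members, lists and roles were chosen with earlier results of these data known. Full values are given for members at an unadjusted p under 0.05 and for the largest difference of each of 8 roles, and shorter values for the rest; other pathway genes are named at an unadjusted p under 0.05. Promoters are from RefSeq (GRCm38.p6). The number of arrays limits the precision. Alternatives were other normalizations, a filter on dim probe sets, other variance priors, the replicate block, leaving out each array, all entries of the table, a required difference of 1 log2 unit, averaging probe sets of a gene and other assignments of members; the exon against intron covariate and the restriction to brighter members were added after seeing the data.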

Additional observations from a re-analysis of the deposited data

How the results depend on the processing

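The count of members past the adjusted threshold was 0 in the fit as reported and under every alternative run, including the replicate block (smallest member adjusted p of 0.513 in limma) and without young replicate 2 (0.0886). The labels do not say that a replicate number marks a shared animal or day. Deviations of replicate 1 from its group mean correlated at -0.05 between the ages across 19572 probe sets. With 2 arrays per age, this value cannot settle whether the replicate numbers pair the samples. The replicate block gave 2 lower members on the recombination side and 777 lower probe sets against 780. Over all probe sets, 2 passed the adjusted test in limma with the replicate block and 1 without young replicate 2, against 0 in the fit as reported. With the exon to intron separation as covariate, which leaves 1 residual degree of freedom, 469 probe sets were lower at an unadjusted p under 0.05, with 0 recombination and Fanconi genes and 2 of the other members (Atm and Trp53bp1) among them. Leaving out an array gave 1 to 3 lower recombination and Fanconi genes and 0 to 2 lower genes among the others. The recombination median of 0.02 was -0.030 with a second quantile normalization, -0.013 with median centring, -0.046 with Mre11a, Nbn and Rad50 counted on that side, -0.33 with the covariate, and -0.24 to 0.13 with an array left out. The gap between the sides of 0.32 was -0.29 with the covariate and -0.015 to 0.29 with an array left out. No member had several probe sets, so that averaging moved no member, and leaving out Parp1, Ercc1 and Xpa left the median of the others at -0.30. That median was -0.036 with the covariate, -0.17 without dim probe sets, and -0.31 to -0.14 with an array left out (-0.14 without young replicate 2 and -0.16 without aged replicate 2).

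Of 465 member differences over the alternatives, 404 kept their sign and their side of an unadjusted p of 0.05, 42 changed sign, 9 lost and 10 gained that p. Leaving out an array turned the sign for 20 members, whose ranges were -0.35 to 0.39 for Brca1, -0.0069 to 0.18 for Palb2, -0.43 to 0.51 for Rad51ap1, -1.34 to 0.22 for Rad54l, -0.49 to 0.90 for Xrcc3, -0.26 to 0.032 for Fancl, -0.32 to 0.65 for Fancm, -0.29 to 1.66 for Fancd2, -0.66 to 0.18 for Blm, -1.13 to 0.20 for Atm, -1.04 to 0.34 for Chek1, -0.34 to 0.24 for Chek2, -0.030 to 0.22 for Topbp1, -0.46 to 1.44 for Mre11a, -0.66 to 0.064 for Rad50, -0.50 to 0.78 for Xrcc5, -0.37 to 0.71 for Xrcc6, -1.005 to 0.19 for Lig4, -0.35 to 0.57 for Msh6 and -0.30 to 0.66 for Xpa. With the covariate the sign turned for Brca1 (-0.77), Rad51ap1 (-0.96), Rad54l (0.83), Xrcc3 (-0.95), Fancm (-0.76), Fancd2 (-1.09), Fanci (0.40), Chek1 (0.48), Mre11a (-0.75), Prkdc (0.12) and Msh6 (-0.35). A second quantile normalization turned Brca1 (-0.030) and Rad51ap1 (-0.0044), and median centring turned Brca1 (-0.013). The median of the other repair genes (0.01) was -0.028 with median centring, -0.0043 with the covariate and -0.039 to 0.057 with an array left out, and that of the replication genes was 0.064 with the covariate and -0.40 to 0.11 with an array left out. The cause of these changes was not tested.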
